A study of Homo sapiens with 21 samples.

Results

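The 10 genes described here encode proteins that place, read and remove N6-methyladenosine (m6A), a methyl mark on adenosines of messenger RNA. They are the writer subunits METTL3, METTL14, WTAP, VIRMA, RBM15 and ZC3H13, the readers YTHDC1, YTHDF1 and YTHDF2, and the eraser ALKBH5. They were chosen by symbol, through the Ensembl gene identifiers of the count tables, and each of the 10 matched 1 of the 60668 rows of both tables. m6A itself was not measured: the values are RNA levels of its machinery.

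In the nucleus, METTL3 transfers the methyl group and METTL14 holds the RNA substrate in place. WTAP, VIRMA, RBM15 and ZC3H13 form the adaptor complex that anchors this pair in nuclear speckles and guides it to messenger RNA. YTHDC1 binds the mark in the nucleus and recruits the splicing factor SRSF3 while keeping SRSF10 away, and it also works with SRSF3 in the export of methylated RNA. YTHDF1 and YTHDF2 bind the mark in the cytoplasm, where they are known for roles in translation and RNA decay, and ALKBH5 removes the methyl group.

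All 21 RNA-seq libraries came from HCC1806, an established human triple-negative breast cancer cell line grown as an adherent culture. They form 7 groups of 3. One table held cells titled 3XCTL (genotype control), 3XSR (genotype 3xSR; the series title names the joint overexpression of SRSF2, SRSF3 and SRSF7) and MYC-OE (overexpressing the transcription factor MYC). The other held 1xCtrl (single plasmid control), 1xSRSF2 (SRSF2 OE), 1xSRSF3 (SRSF3 OE) and 1xSRSF7 (SRSF7 OE). SRSF2, SRSF3 and SRSF7 are SR proteins, which bind RNA and direct splicing. The promoters of the constructs, the number of clones behind each line and whether replicates were separate cultures are not given in the sources used here, so the p-values measure the spread between these libraries, which may be technical. Each line was set against the control titled beside it, and levels were not compared across the 2 tables except as differences from the own control.

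The libraries held 143269192 to 303323552 counts, and each of the 10 genes had 3363 counts or more in every library. Levels are in CPM, counts per mega-count of the library after scaling by trimmed mean of M-values (TMM). Differences are log2 fold changes from edgeR's quasi-likelihood test. A gene is called changed at a Benjamini-Hochberg adjusted p below 0.05, adjusted over all genes of the fit, and the tests are two-sided. The 6 markers of basal breast epithelium were present in every library, with a summed level of 3994 to 5157 CPM. The 2 endothelial markers summed to at most 1.17 CPM, the 3 leukocyte markers to 6.14 to 36.5 CPM, the 3 fibroblast markers to 6.23 to 16.7 CPM and the 5 luminal and receptor genes to 137 to 236 CPM. No marker of the other cell types was at 0 in every library.

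The targeted genes were checked first. MYC was 0.90 higher in MYC-OE (log2, adjusted p = 5.70e-08, edgeR), and also 0.75 higher in the libraries labelled 3XSR (adjusted p = 4.01e-07). SRSF3 was 0.49 higher in 1xSRSF3 (adjusted p = 0.000193) and SRSF7 was 0.26 higher in 1xSRSF7 (adjusted p = 0.00616). SRSF7 was also 0.24 higher in the libraries labelled 1xSRSF2 (adjusted p = 0.00681), at 428 ± 22.3 CPM beside 435 ± 8.65 CPM in 1xSRSF7 (SD, n = 3), and SRSF2 was lower in 1xSRSF7 (-0.38, adjusted p = 0.00180). SRSF2 did not pass the test in the libraries labelled 1xSRSF2: its levels were 376, 407 and 413 CPM, below the 442, 414 and 476 CPM of 1xCtrl in every library, with a log2 difference of -0.16 (SE 0.0640, adjusted p = 0.0980). It did not pass in the libraries labelled 3XSR either (-0.06, adjusted p = 0.389), where SRSF3 (0.31, adjusted p = 0.00243) and SRSF7 (0.44, adjusted p = 3.57e-05) were higher. Every direction below that rests on the libraries labelled 1xSRSF2 or 3XSR carries that limit.

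Per kilobase of annotated exon, ALKBH5 had the highest mean over the 7 groups, at 26.1 CPM per kb with group means from 22.1 to 28.7. YTHDF1 followed at 24.0 (20.3 to 28.9), and the ranges of the pair overlapped. YTHDF2 stood at 19.9, METTL3 at 14.3, YTHDC1 at 13.2, WTAP at 12.6 and ZC3H13 at 10.5 CPM per kb. VIRMA at 6.50, RBM15 at 4.89 and METTL14, the partner of METTL3 in the catalytic pair, at 3.55 closed the order. The exon length is the union over all annotated transcripts, so genes with long or rarely used exons sit lower on this scale.

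**Figure D1:**
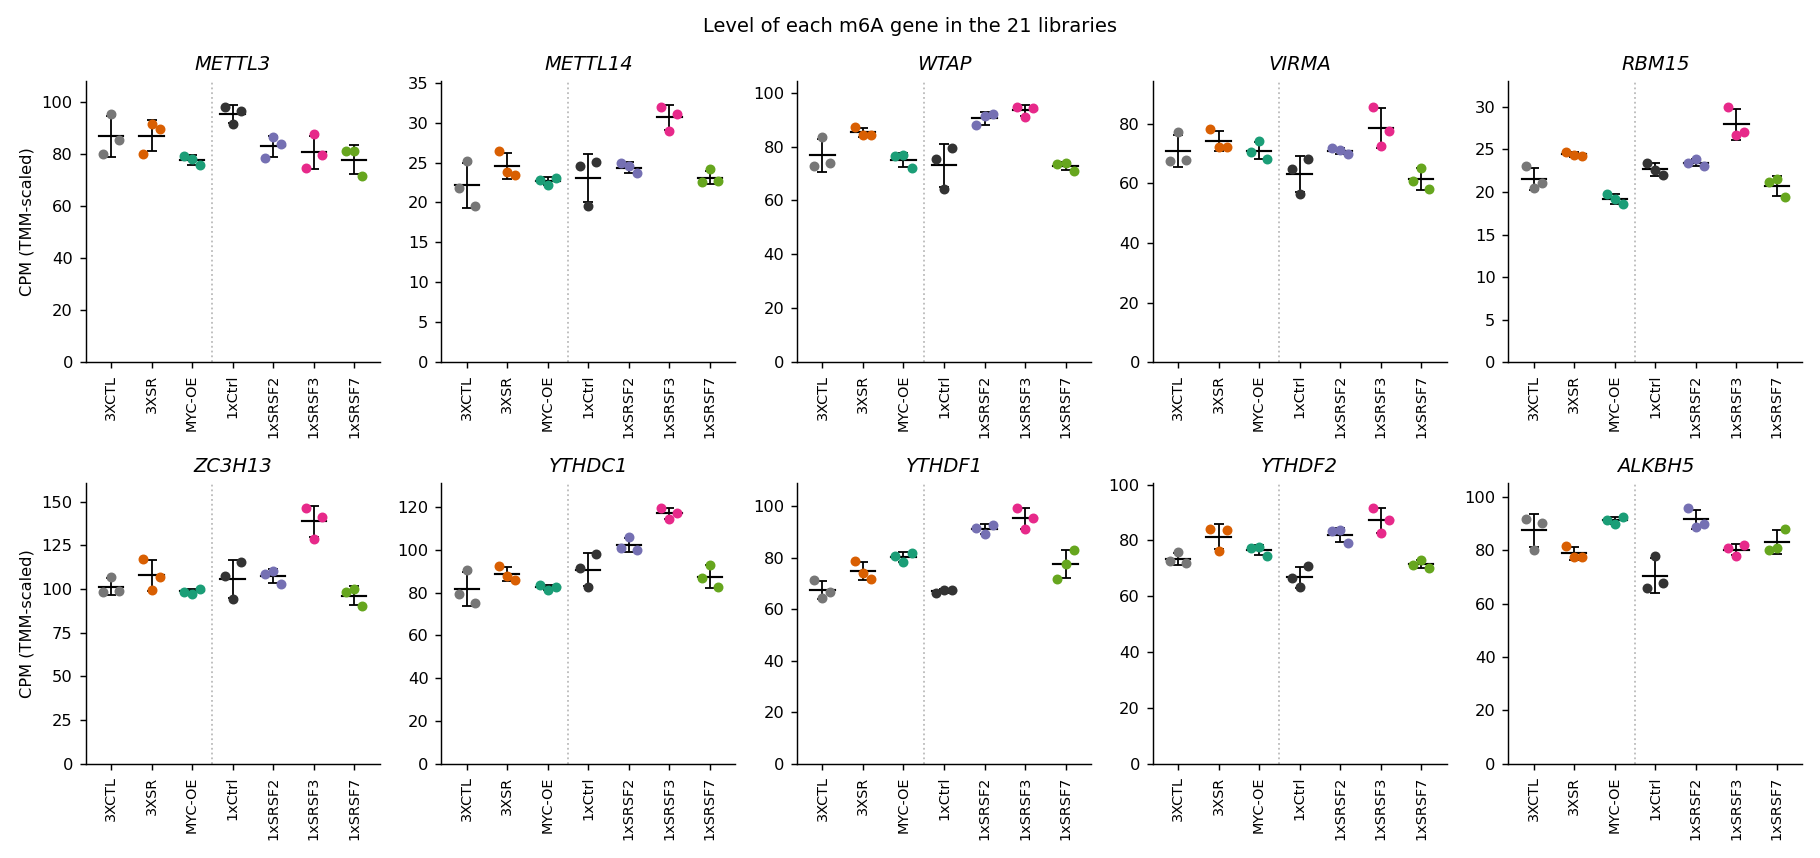
Levels of the 10 genes in CPM (y axis, from 0) in the 21 libraries, by group (x axis), 1 panel per gene; points are libraries, and lines with bars are the group mean ± SD (n = 3). All 1xSRSF3 libraries lie above all 1xCtrl libraries in 9 panels and below them in the METTL3 panel.

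The libraries labelled 1xSRSF3 differed from their control in nearly the whole set. In 1xSRSF3, 9 of the 10 genes changed, 8 higher and METTL3 lower, while 29.2% of the 24362 genes tested were called, 15% higher. Here and below, the genes tested were not matched to the members for level. Among genes with at least 10 counts in every library, 36.4% were called in 1xSRSF3, and 9 members. The highest rise was that of YTHDF1, at 0.50, and ALKBH5 was the member that did not pass (0.19, adjusted p = 0.0605). All 10 genes had groups that did not overlap, against 39.8% of genes tested. The median log2 difference of the 10 was 0.36, beside -0.03 over all genes tested. Of all calls in this contrast 51.6% were higher, against 38.6% under upper-quartile scaling and 32.1% when only library totals were used, where the median of all genes was -0.14; the 9 member calls held under both. Of the marker lists, 4 of the 5 luminal and receptor genes were lower in 1xSRSF3, 3 of the 6 basal markers were higher and 1 lower, and the leukocyte marker CD68 stood at 30.7 ± 1.59 CPM against 12.2 ± 3.24 CPM (SD, n = 3). CD68 was higher in the other 4 lines as well, and the part of these genes in the members' values was not tested. RBM15 and VIRMA were not called when the 1xSRSF2 and 1xSRSF7 libraries were left out of the fit (adjusted p = 0.0536 and 0.0626).

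In the libraries labelled 1xSRSF2, 4 of the 10 rose, namely WTAP, YTHDF1, YTHDF2 and ALKBH5, and 0 fell; 23.5% of genes tested were called, 11.6% higher. Of those calls 49.2% were higher, and 36.7% when only library totals were used. In 1xSRSF7, YTHDF1 and ALKBH5 rose and METTL3 fell, 3 of 10 beside 17.3% of genes called, 9.03% higher and 8.26% lower. METTL3 alone was called there with a replicate block and without 1xCtrl replicate 1 or 3 or 1xSRSF7 replicate 2 or 3, beside 10.7% to 14.4% of genes. Without 1xCtrl replicate 2, 4 members were called, beside 29.2% of genes. In MYC-OE, YTHDF1 rose and RBM15 fell, a share of the members below the 35.3% of genes called there. In the libraries labelled 3XSR, RBM15 rose and the other 9 did not pass, beside 29% of the 23160 genes tested. That count depended on single libraries. Without 3XCTL replicate 2, 5 members were called, METTL14, WTAP, YTHDC1 and YTHDF2 higher and ALKBH5 lower, beside 38.5% of genes. Without 3XCTL replicate 3, 3XSR replicate 1 or 3XSR replicate 3, 0 were called, beside 20.5% to 21.6% of genes. The median log2 difference of the members was 0.17 in 1xSRSF2, -0.02 in 1xSRSF7, 0.0069 in MYC-OE and 0.13 in 3XSR, and that of all genes tested lay between -0.01 and -0.0038 in these 4 contrasts. Groups without overlap numbered 7 of 10 in 1xSRSF2, 4 in 1xSRSF7, 3 in MYC-OE and 4 in 3XSR, beside 35.9%, 32.6%, 48.3% and 40.2% of all genes tested. Contrasts of 1 table share their control libraries, so a control library that stands apart enters all of them.

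**Figure D2:**
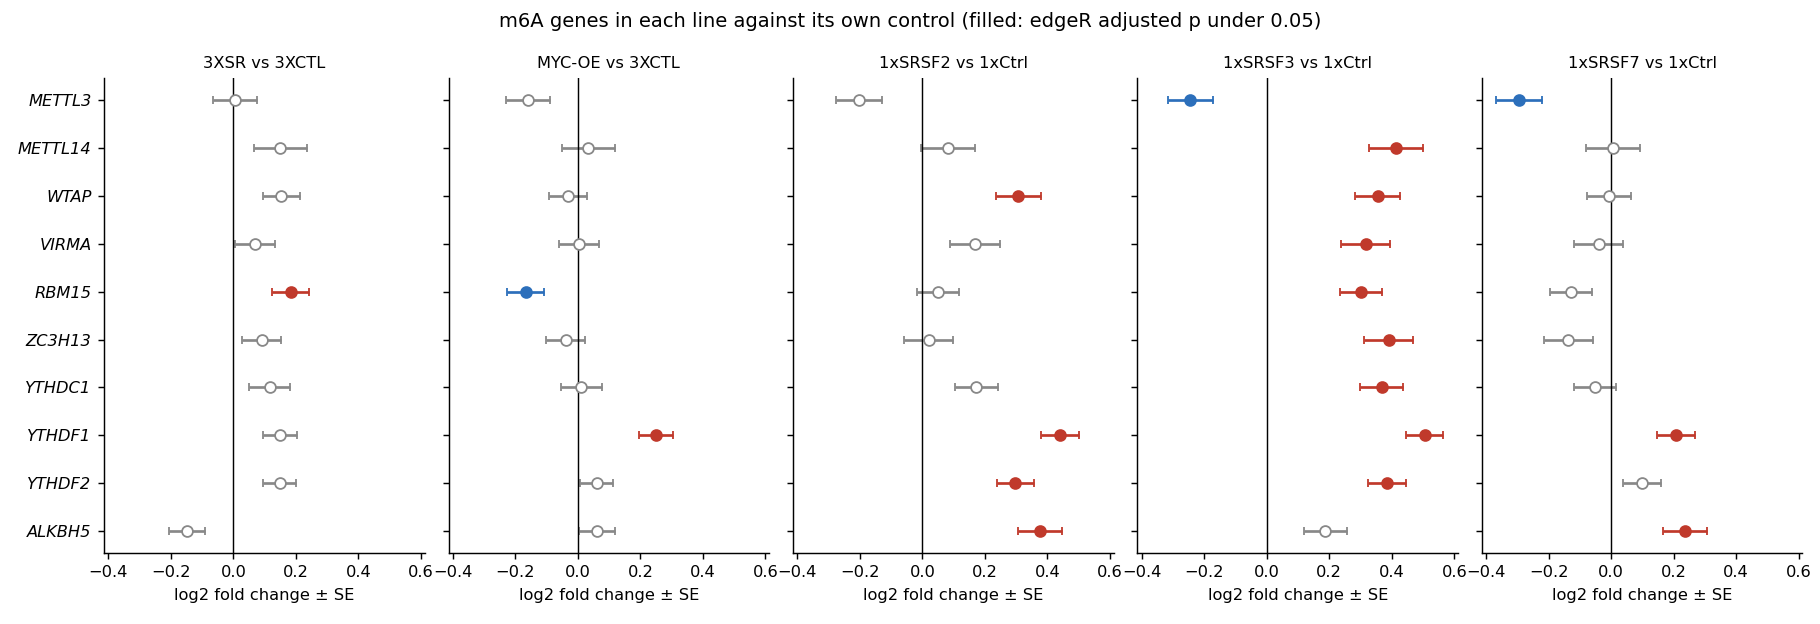
Log2 fold change (x axis) of each of the 10 genes (y axis) against the line's own control, 1 panel per line; points are edgeR estimates, bars ± 1 SE, red and blue filled points are called higher and lower, and open points did not pass. The 1xSRSF3 panel holds 8 red points and 1 blue point, and the 3XSR panel holds 1 red point.

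METTL3 (ENSG00000165819.12, chromosome 14, 21498133 to 21511375, minus strand, GRCh38), the catalytic subunit, fell in 2 single lines and was called higher in none of the 5. In bulk RNA, fewer cells with a transcript and less of it per cell cannot be told apart. In 1xCtrl its levels were 98.2, 91.5 and 96.6 CPM, in 1xSRSF3 74.7, 87.5 and 79.5 CPM, and in 1xSRSF7 81.0, 81.1 and 71.3 CPM. Each library of both lines lay below each control library. METTL3 fell in 1xSRSF3 (log2 difference -0.24, SE 0.0729, adjusted p = 0.0223) and in 1xSRSF7 (log2 difference -0.29, SE 0.0729, adjusted p = 0.0146). The libraries labelled 1xSRSF2 held 78.5, 86.4 and 83.8 CPM, also below the control, with a log2 difference of -0.20 that missed the threshold (adjusted p = 0.0619). That difference passed in 13 of 17 alternative settings, with adjusted p from 0.00146 to 0.0927 over all 17. In the other table the 3XCTL libraries held 79.9, 95.2 and 85.2 CPM, a spread that covers the 80.1, 91.3 and 89.7 CPM of 3XSR (log2 difference 0.0048). MYC-OE held 79.1, 78.2 and 75.7 CPM, each below the control, without passing the test (-0.16, adjusted p = 0.0987).

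Of the 5894 exon bases of METTL3, 388 lie opposite exons of TOX4, which was 54.0 CPM in 1xCtrl. Whether counting used strand is not given in the sources used here. TOX4 was 0.40 higher in 1xSRSF3 (adjusted p = 0.000961) and 0.30 higher in 1xSRSF2 (adjusted p = 0.00881), and in 1xSRSF7 its difference was 0.06 (adjusted p = 0.631). Its part in the METTL3 counts was not tested.

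METTL14 (ENSG00000145388.15, chromosome 4, 118685368 to 118715433, plus strand), which positions the RNA for METTL3, went the other way in 1xSRSF3. Its levels were 24.5, 19.6 and 25.0 CPM in 1xCtrl and 32.0, 28.98 and 31.0 CPM in 1xSRSF3, a rise of 0.41 (SE 0.0861, adjusted p = 0.00270), so the catalytic pair diverged in this line. The rise was 0.30 without 1xCtrl replicate 2, the lowest control library (adjusted p = 0.00172). The other 4 lines lay between 22.1 and 26.5 CPM, with differences from 0.01 to 0.15 that did not pass.

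Among the adaptor subunits, WTAP (ENSG00000146457.16, chromosome 6, 159725585 to 159756319, plus strand), which tethers the catalytic pair to speckles, rose in 2 lines. It stood at 75.5, 64.1 and 79.6 CPM in 1xCtrl, 87.9, 91.3 and 92.1 CPM in 1xSRSF2 and 94.8, 91.1 and 94.3 CPM in 1xSRSF3. All 6 libraries of the 2 lines lay above all 3 control libraries. The rise was 0.31 in 1xSRSF2 (SE 0.0708, adjusted p = 0.00682) and 0.35 in 1xSRSF3 (SE 0.0709, adjusted p = 0.00204). In 1xSRSF7 (71.0 to 73.9 CPM), MYC-OE (71.9 to 76.7 CPM) and 3XSR (84.3 to 87.3 CPM, against 72.7 to 83.7 CPM in 3XCTL) it did not pass. Exons annotated on the opposite strand cover 437 of the 6419 exon bases of WTAP, and their part in the WTAP counts was not tested.

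VIRMA (ENSG00000164944.12, chromosome 8, 94487693 to 94553529, minus strand), the large scaffold of the adaptor complex, rose in 1xSRSF3 and was called in none of the other 4 lines. Its levels were 64.7, 56.5 and 68.3 CPM in 1xCtrl and 85.8, 72.6 and 77.5 CPM in 1xSRSF3 (log2 difference 0.32, SE 0.0797, adjusted p = 0.00897). 1xCtrl replicate 2 was the lowest of these libraries, and without it the rise was 0.23 (adjusted p = 0.018). Elsewhere its differences ran from -0.04 to 0.17 and did not pass.

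ZC3H13 (ENSG00000123200.16, chromosome 13, 45954465 to 46052759, minus strand), a zinc finger subunit that holds the adaptor complex in the nucleus, showed the widest gap between single lines. It stood at 146, 129 and 141 CPM in 1xSRSF3, 108, 94.2 and 115 CPM in 1xCtrl and 98.1, 100.2 and 90.1 CPM in 1xSRSF7. The 1xSRSF3 libraries lay above all others of the table, and the rise over control was 0.39 (SE 0.0783, adjusted p = 0.00208). The 1xSRSF7 libraries overlapped the control (-0.14, adjusted p = 0.261). Without 1xCtrl replicate 2 the 1xSRSF7 difference was -0.20 and passed (adjusted p = 0.0299).

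RBM15 (ENSG00000162775.16, chromosome 1, 110338506 to 110346681, plus strand), an RNA-binding subunit that brings the complex to its targets, rose in 2 lines and fell in 1. Its levels were 23.4, 22.6 and 21.9 CPM in 1xCtrl and 30.04, 26.7 and 27.1 CPM in 1xSRSF3, without overlap (log2 difference 0.30, SE 0.0670, adjusted p = 0.00404). In the other count table, the 3XCTL libraries held 23.0, 20.5 and 21.1 CPM, 3XSR 24.7, 24.4 and 24.2 CPM and MYC-OE 19.8, 19.1 and 18.6 CPM, so that the 3 groups did not overlap. RBM15 rose in the libraries labelled 3XSR (log2 difference 0.18, SE 0.0598, adjusted p = 0.0383) and fell in MYC-OE (log2 difference -0.17, SE 0.0598, adjusted p = 0.0472). The rise was lost in 8 of 17 alternative settings (adjusted p from 0.000416 to 0.132), among them the absence of any 3XSR library or of 3XCTL replicate 2 or 3. The fall was lost in 9 of 17 (0.0092 to 0.171), among them the absence of any MYC-OE library or of 3XCTL replicate 1 or 3. Its antisense neighbour RBM15-AS1, which covers 175 of 4670 exon bases, stood at 0.297 CPM in 3XCTL and 0.273 CPM in 1xCtrl.

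YTHDC1 (ENSG00000083896.12, chromosome 4, 68310387 to 68350089, minus strand), the nuclear reader that recruits SRSF3, rose in the line overexpressing SRSF3. Its levels were 91.5, 82.7 and 98.1 CPM in 1xCtrl and 119, 114 and 118 CPM in 1xSRSF3 (log2 difference 0.37, SE 0.0682, adjusted p = 0.00122). Every 1xSRSF3 library lay above every other library of that table. The rise was 0.29 without 1xCtrl replicate 2 (adjusted p = 0.000931). In the libraries labelled 1xSRSF2 it stood at 101, 106 and 99.9 CPM, above the control in each library but short of the threshold (0.17, adjusted p = 0.0868). The differences in 1xSRSF7 (-0.05), MYC-OE (0.01) and 3XSR (0.12) did not pass either. SRSF3 RNA was also higher in the libraries labelled 1xSRSF2 and 3XSR. YTHDC1 was among 8 members that rose in 1xSRSF3, and the part of SRSF3 in its level was not tested.

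YTHDF1 (ENSG00000149658.18, chromosome 20, 63195429 to 63216234, minus strand), a cytoplasmic reader tied to translation, rose in 4 of the 5 lines. In 1xCtrl it stood at 66.2, 67.6 and 67.6 CPM, in 1xSRSF2 at 91.5, 89.2 and 92.8 CPM, in 1xSRSF3 at 99.2, 91.3 and 95.3 CPM and in 1xSRSF7 at 71.9, 77.7 and 83.0 CPM. All 9 libraries of the single lines lay above the 3 controls, which spanned less than 2 CPM. The rises were 0.44 in 1xSRSF2 (SE 0.0602, adjusted p = 0.000223), 0.50 in 1xSRSF3 (SE 0.0603, adjusted p = 4.80e-05) and 0.21 in 1xSRSF7 (SE 0.0601, adjusted p = 0.0307). The last was lost in 7 of 17 alternative settings: with a replicate block (adjusted p = 0.0556), and without 1xCtrl replicate 1 (0.195) or 3 (0.12) or 1xSRSF7 replicate 2 (0.117) or 3 (0.222), among others. MYC-OE held 80.8, 78.3 and 81.9 CPM against 71.3, 64.5 and 66.8 CPM in 3XCTL, also without overlap (log2 difference 0.25, SE 0.0549, adjusted p = 0.00374). The 3XSR libraries, at 78.7, 74.2 and 71.7 CPM, lay above each control library with a difference of 0.15 that did not pass (adjusted p = 0.0619). Of the 22941 genes tested in all 5 contrasts, 6.93% were called in 4 and 2.26% in 5. These shares count calls in either direction, and the share called higher in 4 is not given here.

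YTHDF2 (ENSG00000198492.16, chromosome 1, 28736621 to 28769775, plus strand), the reader tied to RNA decay, rose in 1xSRSF2 (log2 difference 0.30, SE 0.0598, adjusted p = 0.00297) and 1xSRSF3 (log2 difference 0.38, SE 0.0598, adjusted p = 0.000348). It stood at 63.2 to 70.7 CPM in 1xCtrl, 79.1 to 83.6 CPM in 1xSRSF2 and 82.6 to 91.5 CPM in 1xSRSF3. Neither line overlapped the control. The differences in 1xSRSF7 (0.10), MYC-OE (0.06) and 3XSR (0.15, adjusted p = 0.0542) did not pass. That of 3XSR passed in 7 of 17 alternative settings, with adjusted p from 0.016 to 0.187 over all 17.

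ALKBH5 (ENSG00000091542.9, chromosome 17, 18183078 to 18209954, plus strand), the eraser, rose in 1xSRSF2 and 1xSRSF7. Its levels were 65.7, 77.9 and 67.9 CPM in 1xCtrl, 95.7, 88.9 and 90.0 CPM in 1xSRSF2 and 79.9, 80.9 and 88.1 CPM in 1xSRSF7. Both lines lay above the control in every library. The rise was 0.38 in 1xSRSF2 (SE 0.0699, adjusted p = 0.00183) and 0.24 in 1xSRSF7 (SE 0.0699, adjusted p = 0.0340). The 1xSRSF7 call was lost in 11 of 17 alternative settings (adjusted p from 0.00146 to 0.348), among them the replicate block (0.0678) and the absence of each library but 1xCtrl replicate 2. The 1xSRSF2 call was lost in 3 of 17, with adjusted p of 0.0627 without 1xCtrl replicate 1 and 0.0578 without 1xSRSF2 replicate 1. In 1xSRSF3 ALKBH5 stood at 80.8, 77.9 and 82.1 CPM, and its difference of 0.19 did not pass. 1xCtrl replicate 2 was its highest control library, and without it the 1xSRSF3 difference was 0.25 (adjusted p = 0.00567). In the libraries labelled 3XSR the levels were 81.6, 77.5 and 77.6 CPM against 91.9, 80.3 and 90.2 CPM in 3XCTL, a difference of -0.15 that did not pass (adjusted p = 0.0705), and -0.21 without 3XCTL replicate 2 (adjusted p = 0.00192). A noncoding gene on the opposite strand, AC087164.1, covers 357 of 3190 exon bases of ALKBH5.

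YTHDF1 and RBM15, called in MYC-OE in the main fit, were also the members whose promoter window held the E-box CACGTG. MYC binds this site with MAX. The motif reads the same on both strands and was searched in the 250 bases before each start site in RefSeq's promoter table (GRCh38.p14). Windows were found for 9 of the 10 genes (not for VIRMA), 11 windows in all, and 2 held the motif, as did 6.34% of all 35116 windows. Both stretches are shown on the strand of the gene, 66 bases long, with the E-box in capitals. Distances are to the start sites of that table, which differ from the GENCODE ends given above: the E-box at RBM15 lies inside the GENCODE span of the gene. The first stretch is chr1:110339166-110339231, with its E-box 176 bases before the RefSeq start of RBM15, and the second chr20:63216307-63216372, with its E-box 206 bases before that of YTHDF1.
RBM15: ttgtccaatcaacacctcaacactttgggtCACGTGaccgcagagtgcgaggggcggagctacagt
YTHDF1: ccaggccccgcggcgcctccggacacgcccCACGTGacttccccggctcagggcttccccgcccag
In MYC-OE, YTHDF1 rose and RBM15 fell, and the RBM15 call was lost in 9 of 17 alternative settings. METTL3, whose window held no CACGTG, was called lower there with the GC trend removed (-0.21, adjusted p = 0.008, edgeR). Which members were called in MYC-OE thus varied with the setting. MYC RNA was also higher in 1xSRSF3 (0.26, adjusted p = 0.00406), where both genes rose, in 1xSRSF7 (0.27, adjusted p = 0.00608), where YTHDF1 rose and RBM15 did not pass (-0.13), and in 3XSR, where RBM15 rose and YTHDF1 did not pass. In the libraries labelled 1xSRSF2, MYC was not called, at 144 ± 2.34 CPM against 133 ± 9.49 CPM (SD, n = 3). There YTHDF1 rose (0.44) and RBM15 did not pass (0.05). A match of letters is a description, and binding was not measured.

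Lines were next compared with each other. Against 1xSRSF2, 1xSRSF3 had 4 of 10 members higher (26.8% of genes were called): METTL14 (0.33, adjusted p = 0.0119), RBM15 (0.25, adjusted p = 0.0134), ZC3H13 (0.37, adjusted p = 0.00354) and YTHDC1 (0.20, adjusted p = 0.0498). The YTHDC1 call was lost with a replicate block (adjusted p = 0.0905) and without replicate 1 or 3 of either line (0.0518 to 0.0665), and that of RBM15 without 1xSRSF3 replicate 1 (0.0585). Under upper-quartile scaling METTL14 (adjusted p = 0.0507), RBM15 (0.0752) and YTHDC1 (0.244) were lost, and ALKBH5 was called lower (-0.25, adjusted p = 0.0125). 1xSRSF7 lay below 1xSRSF3 in 8 of 10, beside 35.2% of genes called. The differences ran from -0.29 for YTHDF2 to -0.53 for ZC3H13 (adjusted p = 0.000176), and the exceptions were METTL3 (-0.05, adjusted p = 0.647) and ALKBH5 (0.05, adjusted p = 0.644). Those 8 calls and the 2 misses were the same in all 17 alternative settings. Below 1xSRSF2, 1xSRSF7 had WTAP (-0.31), YTHDC1 (-0.22), YTHDF1 (-0.23) and YTHDF2 (-0.20), 4 of 10 beside 24.2% of genes called. With the replicate number as a block, YTHDC1 and YTHDF2 left that list, and 2 of 10 were called. Leaving out 1 library gave 1 to 3 calls: YTHDF2 was kept only without 1xSRSF2 replicate 3, YTHDF1 only without 1xSRSF7 replicate 3, and YTHDC1 was lost without 1xSRSF2 replicate 2 or 1xSRSF7 replicate 3. Between MYC-OE and 3XSR, 34.9% of genes were called; RBM15 (-0.35, adjusted p = 0.000861) and WTAP (-0.19, adjusted p = 0.0312) were lower in MYC-OE and ALKBH5 (0.21, adjusted p = 0.0133) was higher. WTAP was lost when any of the 6 libraries was left out (adjusted p from 0.0627 to 0.123), and ALKBH5 without 3XSR replicate 3 (0.0578).

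Whether the joint line repeats the pattern of the SRSF3 line was asked in 1 fit over all 21 libraries, as the 3XSR difference from 3XCTL minus the 1xSRSF3 difference from 1xCtrl. It passed for 3 of 10 members, all negative, beside 17.8% of 25013 genes tested, 7.02% negative. The 3XSR effect was smaller for YTHDF1 (log2 difference -0.34, SE 0.0799, adjusted p = 0.00502) and YTHDF2 (log2 difference -0.22, SE 0.0749, adjusted p = 0.0444). For ALKBH5 the effects of 3XSR (-0.15) and 1xSRSF3 (0.19) were not called by themselves, and their difference passed (log2 difference -0.32, SE 0.0942, adjusted p = 0.0219). The YTHDF2 call was lost in 12 of 24 alternatives, among them the replicate block (adjusted p = 0.0549) and the absence of either replicate 2 of the controls (0.0934 and 0.0686). The ALKBH5 call was lost in 4 of 24. These were total counts alone (0.0981), the 4 groups alone (0.0846) and the absence of 3XCTL replicate 1 (0.0622) or 1xCtrl replicate 1 (0.0579). YTHDF1 passed in all 24. With the GC trend removed 9 of 10 members were called, 8 of them negative, beside 29% of genes. In the main fit, without that removal, the other 7 members did not pass, among them ZC3H13 (-0.29, adjusted p = 0.0551), METTL3 (0.26, adjusted p = 0.0738) and YTHDC1 (-0.24, adjusted p = 0.0820). This comparison spans 2 tables, so the table and the construct cannot be told apart beyond what the controls remove.

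Libraries differed in how counts varied with the GC content of genes. The level of low-GC genes relative to high-GC genes, in log2 units against the mean of its table, was -0.78 in 1xCtrl replicate 2 against 0.24 and 0.54 in replicates 1 and 3. In 3XCTL it was 0.42 in replicate 2 against -0.31 and -0.27, while 3XSR lay between 0.23 and 0.45 and MYC-OE between -0.42 and -0.22. The 1xSRSF3 libraries stood at 0.40, 0.23 and 0.19, 1xSRSF2 between -0.12 and 0.04, and 1xSRSF7 between -0.44 and 0.08. The members had a median GC content of 46.2%, from 38.9% for METTL14 to 54.1% for RBM15, against 49.0% for genes tested. With each library's GC trend removed, 10 of 10 members were called in 1xSRSF3, 9 higher and METTL3 lower, beside 38.6% of genes. In 1xSRSF2, 8 were called, 7 higher and METTL3 lower, beside 34.4%. In 1xSRSF7, 4 were called, 2 in each direction, beside 29.6%. In MYC-OE 3 were called, 1 higher, beside 44.1%, and in 3XSR 3 were called, all higher, beside 33.8%. Between 1xSRSF7 and 1xSRSF2 the count was 7 beside 34.8% of genes, and between MYC-OE and 3XSR 5 beside 38.2%. METTL3 was then called lower in all 3 single lines and in MYC-OE (-0.21, adjusted p = 0.008).

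**Figure D3:**
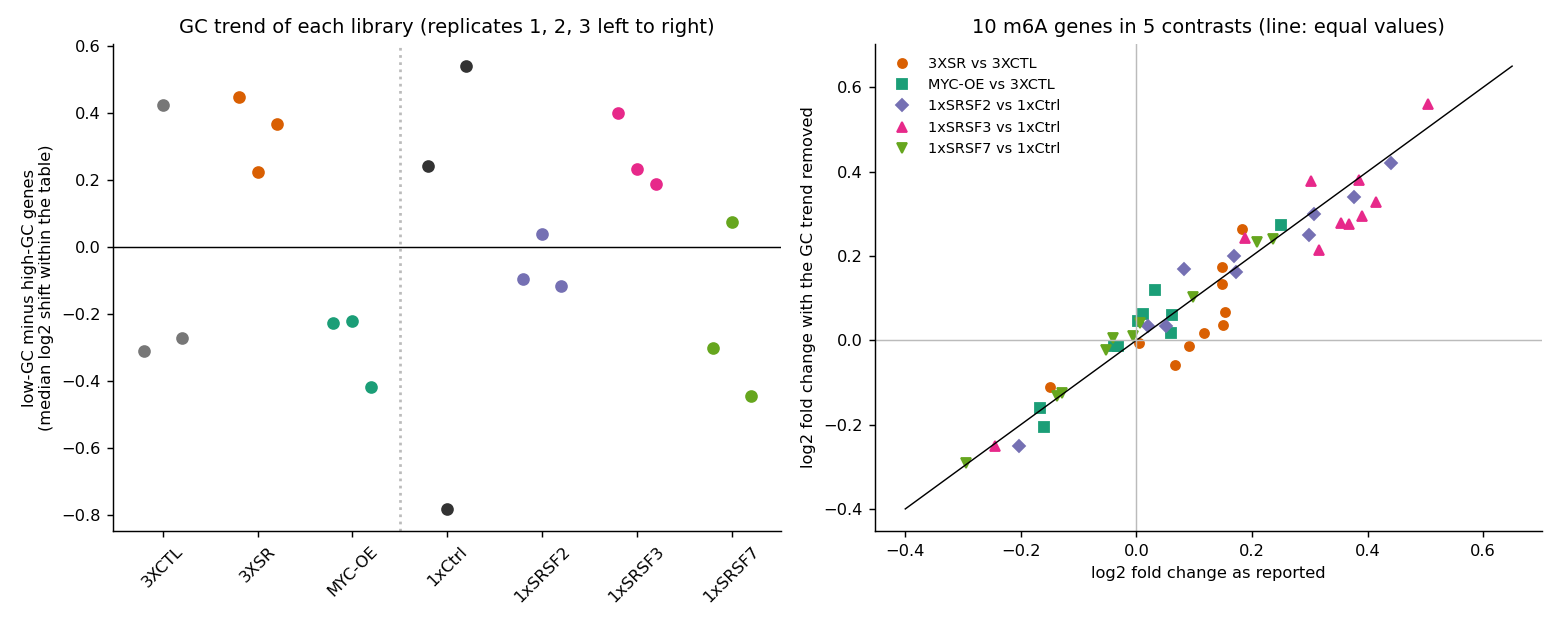
Left, shift of low-GC relative to high-GC genes in log2 units (y axis) for each library by group, replicates 1 to 3 from left to right; right, log2 fold change of each member as reported (x axis) against that with the GC trend removed (y axis), coloured by contrast. Replicate 2 of each control stands apart from the other 2 replicates.

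The other genes of the pathway were taken from 5 lists with 25 genes in all, each of which was tested. Shares in brackets are of all genes tested, called higher and lower. In 1xSRSF3, 12 were higher and 0 lower (15% and 14.1%), and in 1xSRSF2 8 and 2 (11.6% and 11.9%). In 1xSRSF7 the counts were 6 and 4 (9.03% and 8.26%), and in MYC-OE 6 and 7 (18% and 17.3%). In 3XSR they were 5 and 2 (15.3% and 13.7%), so that 7 of 25 were called beside 29% of all genes. Among the 7 other writers, METTL5, which methylates 18S ribosomal RNA, was called in every line, from 0.29 in 1xSRSF3 to 1.00 in MYC-OE. TRMT112, the partner that stabilises METTL5, rose in MYC-OE (0.39), 1xSRSF2 (0.54) and 1xSRSF7 (0.60). METTL16, which methylates U6 small nuclear RNA and the MAT2A messenger, was called in 1xSRSF3, at 73.0 ± 4.33 CPM against 50.2 ± 3.48 CPM (SD, n = 3; log2 difference 0.54, SE 0.0662, adjusted p = 5.81e-05), and in none of the other 4 lines. The second eraser, FTO, was called in none of the 5 contrasts with a control.

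The largest differences of the whole pathway were those of a reader, IGF2BP1, an RNA-binding protein that stabilises its messengers. It stood at 1.29, 1.35 and 1.87 CPM in 3XCTL, 11.3, 10.7 and 11.0 CPM in 3XSR and 6.41, 6.59 and 5.93 CPM in MYC-OE. The 3 groups did not overlap, and the rises were 2.87 in 3XSR (SE 0.133, adjusted p = 3.67e-08) and 2.07 in MYC-OE (SE 0.130, adjusted p = 2.44e-07). In the single lines it rose by 0.52, 0.59 and 0.70 from 3.79 ± 0.590 CPM (SD, n = 3). Its paralog IGF2BP2 was also called in every line, from 0.34 in 1xSRSF2 to 0.87 in MYC-OE. Of the 11 other readers, 2 were higher and 1 lower in 3XSR, 3 and 5 in MYC-OE, 3 and 2 in 1xSRSF2, 6 and 0 in 1xSRSF3, and 3 and 1 in 1xSRSF7. Of all genes tested, 29%, 35.3%, 23.5%, 29.2% and 17.3% were called in these contrasts, in that order. HNRNPC, a nuclear protein whose binding is exposed by the mark, rose in the single lines (0.35, 0.30 and 0.35).

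Of the methyl donor genes, AHCY, which clears S-adenosylhomocysteine, rose in MYC-OE (0.41), 1xSRSF2 (0.40), 1xSRSF3 (0.32) and 1xSRSF7 (0.31). MAT2A, which makes the donor S-adenosylmethionine, fell in 1xSRSF7 (-0.26, adjusted p = 0.0316) and was called in none of the other 4 lines. Among the partners of YTHDC1, SRSF10, the factor it holds back, fell in MYC-OE (-0.54, adjusted p = 3.26e-05) and 1xSRSF7 (-0.34, adjusted p = 0.00938). The export receptor NXF1 rose in 3XSR (0.24, adjusted p = 0.00380) and fell in 1xSRSF7 (-0.23, adjusted p = 0.0182). SRSF3 itself rose in 1xSRSF2 (0.30, adjusted p = 0.00794) as well as in 1xSRSF3 and 3XSR.

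**Figure D4:**
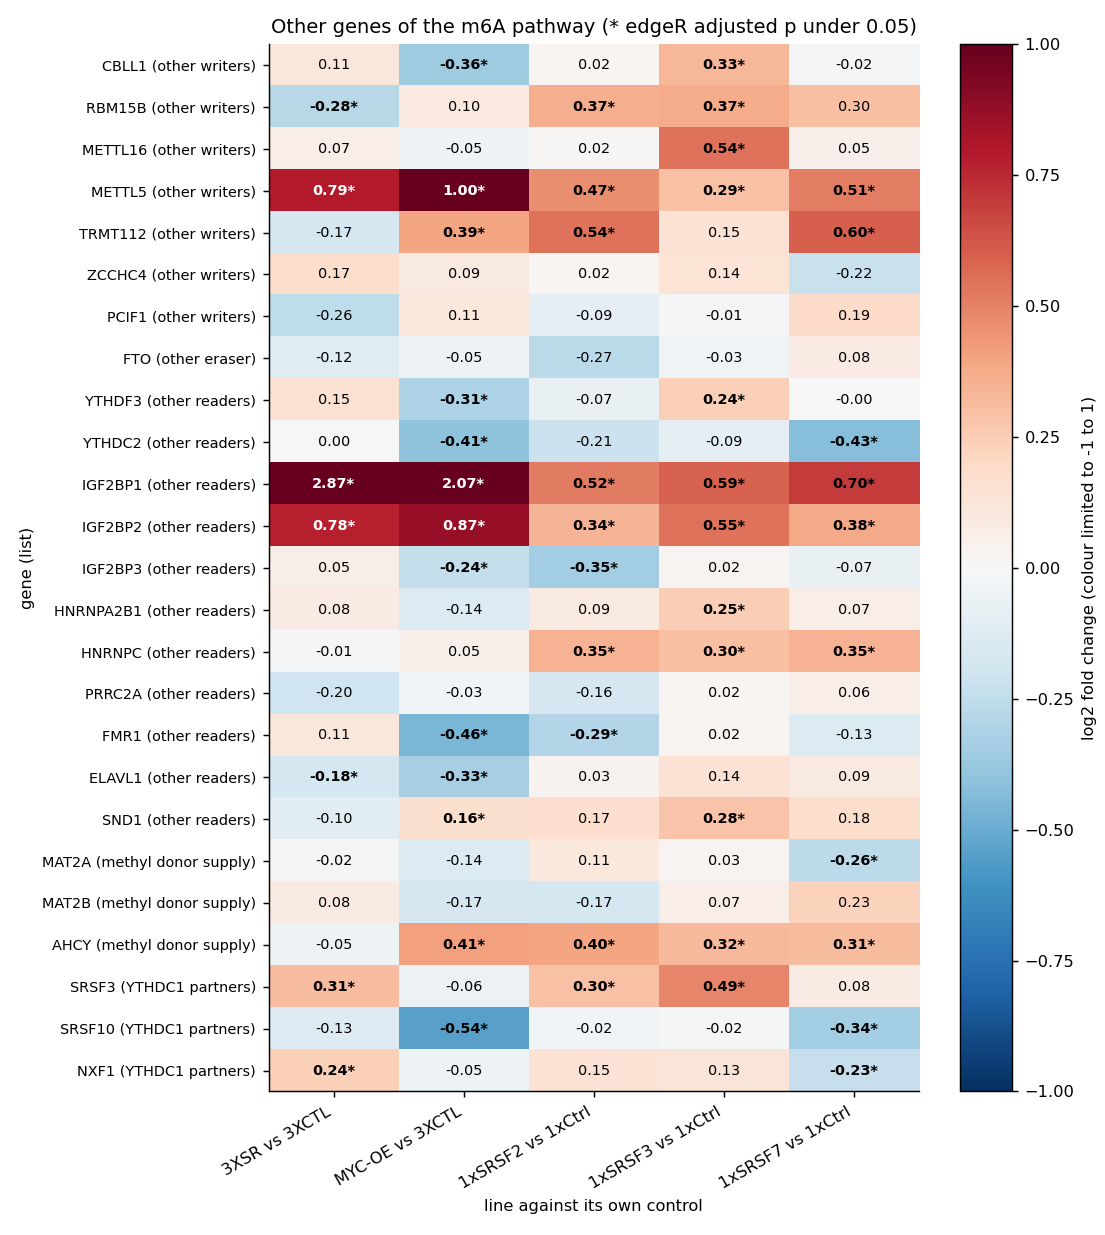
Log2 fold change against the own control (colour and printed value) of the 25 other pathway genes (rows, by list) in the 5 lines (columns); an asterisk marks an adjusted p below 0.05 in edgeR. IGF2BP1 reaches 2.87 in 3XSR, METTL5 and IGF2BP2 are called in all 5 columns, and FTO in none.

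Across the 21 libraries, as log2 levels centred on each table's control mean, most members ran together, apart from METTL3 and ALKBH5. Pearson's r was 0.95 between VIRMA and YTHDC1, 0.93 between METTL14 and YTHDC1, and 0.92 between WTAP and YTHDF2. METTL3 had r = -0.81 with ALKBH5, -0.73 with YTHDF1 and -0.20 with its partner METTL14. ALKBH5 had r = -0.0013 with METTL14 and 0.69 with YTHDF1. These values describe the libraries, which share controls, scaling and the GC trend above. Over 11307 genes, those most like METTL3 were NAPB (r = 0.93), CCDC14 (0.92) and EZH1 (0.92). PSMD5 and YME1L1 were among those most like METTL14 (both r = 0.96), and DDX46, DDX52 (both r = 0.97) and TRIP12 (0.96) most like YTHDC1. For ALKBH5 they were DUSP14, S100A16 and SURF2 (each r = 0.96).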

How the data were processed

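RNA was DNase-treated, polyA-selected, made into stranded libraries and sequenced in pairs on a NovaSeq, per the labels' protocols. The deposited values are whole-number counts per gene in 2 tables, not scaled, made by the authors. Per the submitters' processing notes, Trimmomatic 0.39, STAR, StringTie 2.1.3b and GRCh38.p13 were used, with no role given. The annotation, the strand setting, how pairs were counted and whether StringTie made these counts are not given in the sources used here. Symbols matched 60340 of 60668 identifiers, and 58561 were found in GENCODE 29 (GRCh38), which gave positions, exon overlap, length and GC content.

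Counts were analysed in edgeR 4.0.16 (R 4.3.3) with TMM scaling, filterByExpr (minimum count 10, minimum total 15) and robust quasi-likelihood fits, 1 per table with group as the sole term (9 and 12 libraries), and 1 over all 21. The SE is the log2 fold change divided by the root of F. Replicates of a group differed by more than counting error, and all 21 columns were mapped by title. The 10 members were always named, as were the targeted genes; of the lists, genes called in at least 1 contrast with a control could be named and the rest were counted, and FTO was named after its values were seen, being the sole gene of its list. Likeness was Pearson's r of log2 CPM with a prior count of 2 over genes of 5 CPM or more, and 1 gene it named is not reported here. The members and lists were chosen with earlier results of these data known. Alternatives were other scalings, filters and tools (DESeq2 1.42.0, limma 3.58.1), fits on the groups compared, a replicate block, removal of each library's GC trend over 50 bins of genes, and leaving out each library. The procedure was tested on simulated data.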

Additional observations from a re-analysis of the deposited data

Results flagged for a closer look

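For 3 members the difference from control in the libraries labelled 3XSR differed from that in 1xSRSF3, tested in 1 edgeR fit over all 21 libraries with p adjusted over all genes. The difference of the 2 effects was -0.34 for YTHDF1 (SE 0.0799, adjusted p = 0.00502), where all 3 libraries of both lines lay above their controls. For YTHDF2 it was -0.22 (SE 0.0749, adjusted p = 0.0444). For ALKBH5 it was -0.32 (SE 0.0942, adjusted p = 0.0219): the 1xSRSF3 libraries lay above their controls, the closest at 77.9 CPM on both sides, and 2 of the 3 libraries of 3XSR lay below all of theirs. The YTHDF2 call was lost in 12 of 24 alternative settings, among them the replicate number as a block (adjusted p = 0.0549). That of ALKBH5 was lost in 4 of 24, and that of YTHDF1 in 0.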

How the results depend on the processing

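Of 1770 values of single members under the alternatives, 1578 kept their side of the threshold, 95 lost a call and 95 gained one. The other 2 reversed, which means a changed sign with a call in at least 1 of the 2 fits. Among the 1578, 60 changed sign while called in neither fit. In 1xSRSF3 165 of 170 were kept. The reversed values were those of VIRMA between MYC-OE and 3XSR, -0.06 as reported and 0.10 with the GC trend removed (adjusted p = 0.0339), without and with a replicate block. Same-numbered replicates did not deviate together: the mean correlation of their deviations lay between -0.11 and -0.0062 in the 5 contrasts with a control, and at most 1 of 6 libraries correlated best with its own number. With the number as a replicate block 1 member in place of 3 was called in 1xSRSF7, beside 13.8% of genes, and 2 in place of 4 between 1xSRSF7 and 1xSRSF2. It changed 2 of 50 calls against a control. Over all genes, 1xSRSF7 had 4214 calls, 7209 with the GC trend removed, 6726 with a block as well (chosen after seeing the data), 2251 in a fit on the 2 groups alone and 2685 (without 1xSRSF7 replicate 3) to 7321 (without 1xCtrl replicate 2) with 1 library left out.

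Counts of members called moved as follows; the cause was not tested. Shares in brackets are of all genes tested in the same fit. In 3XSR, 1 was called as reported (29%). The count was 2 with RLE scaling (29.1%), at least 10 counts in every library (34.6%) and DESeq2 (32.5%). It was 0 with total counts alone (29.6%), no filter (16.3%) and the 2 groups alone (24.8%). With the GC trend removed it was 3 (33.8%), or 4 with a block as well (34.1%). With 1 library left out it was 0 to 5 (20.5% to 38.5%). In MYC-OE, 2 (35.3%) became 1 with RLE (35.2%) or upper-quartile scaling (35%), no filter (20.5%) and the 2 groups alone (33.5%). It became 3 with the GC trend removed, without (44.1%) or with a block (44.5%). With 1 library left out it was 1 to 2 (27.6% to 37.7%). In 1xSRSF2, 4 (23.5%) became 8 with the GC trend removed, without (34.4%) or with a block (32.4%). With 1 library left out it was 3 to 6 (18.9% to 30%). In 1xSRSF7, 3 (17.3%) became 1 with upper-quartile scaling (16.4%) and on the 2 groups alone (9.76%). With 1 library left out it was 1 to 4 (10.7% to 29.2%). For 1xSRSF3 against 1xSRSF2, 4 (26.8%) became 2 with upper-quartile scaling, ZC3H13 higher and ALKBH5 lower. With 1 library left out it was 2 to 5. For 1xSRSF7 against 1xSRSF2, 4 (24.2%) became 2 with total counts alone and 7 on the 2 groups alone. It became 7 with the GC trend removed (34.8%), also with a block, and 1 to 3 with 1 library left out. For MYC-OE against 3XSR, 3 (34.9%) became 5 with the GC trend removed (38.2%), also with a block, and 1 to 3 with 1 library left out. For the difference of the 3XSR and 1xSRSF3 effects, 3 (17.8%) became 5 with at least 10 counts in every library and 1 on the 4 groups alone. It became 9 with the GC trend removed (29%), also with a block, and 1 to 7 with 1 library left out. Without replicate 2 of both controls, a fit chosen after seeing the data, it was 3. Where no share is printed, the share of all genes called is not given here. These values rest on 3 replicates per group and on 3363 counts or more per member and library.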
